A study of Mus musculus with 12 samples.

Results

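The autophagy and mitophagy machinery was followed here as 38 genes, chosen by symbol from the genes that build, load and regulate the autophagosome, out of 25094 genes listed in each of the 2 deposited expression tables. All 38 were found in both tables, and all 38 passed the filter on low values, set at 0.1 RPKM on average across a table. Their levels were compared between the denervated right gastrocnemius, a calf muscle, and the left gastrocnemius that the labels call healthy. Both came from male wild-type mice, whose ages are not given in the labels. The 4 groups, with 3 libraries each, were the right muscle of C57BL/6 mice taken 2 weeks after its sciatic nerve had been severed, the left muscle of C57BL/6 mice, the same right muscle of BALB/c mice, and the left muscle of BALB/c mice. The series was made to study a nicotinic acetylcholine receptor of the muscle membrane under denervation, and C57BL/6 and BALB/c are inbred laboratory strains. A sham operation is described in the protocol, and no label says whether a left leg had one. No label says whether the 3 libraries of a group are 3 mice, and the p-values therefore speak of the spread among these libraries, possibly a technical one.

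Autophagy encloses part of the cytoplasm in a growing membrane, the phagophore, which closes into an autophagosome and fuses with a lysosome. A kinase complex starts the process, a lipid kinase complex marks the membrane, and a conjugation system attaches proteins of the LC3 and GABARAP families to a membrane lipid. Receptors such as p62 hold ubiquitinated proteins or mitochondria against these proteins, and in skeletal muscle this route, beside the proteasome, is known for breaking down fibre contents during disuse and loss of the nerve.

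The LC3 and GABARAP transcripts all code for a glycine close to the end of the protein. ATG4 proteases cut after it, and the glycine is then joined to the membrane lipid. The ends of the 5 coding sequences are shown because the same proteases and enzymes act on all 5 products, while their transcripts changed by very different amounts. They are from the GENCODE M21 transcripts of GRCm38, the glycine codon is in capitals and the run ends with the stop codon.
Map1lc3a: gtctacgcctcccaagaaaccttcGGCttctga
Map1lc3b: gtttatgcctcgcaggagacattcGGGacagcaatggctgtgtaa
Gabarap: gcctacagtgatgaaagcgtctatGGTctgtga
Gabarapl1: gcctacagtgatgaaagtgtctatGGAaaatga
Gabarapl2: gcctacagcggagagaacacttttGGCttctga
The glycine is codon 120 of 121 in Map1lc3a and codon 120 of 125 in Map1lc3b, so Map1lc3b has the longest stretch that the proteases remove. It is codon 116 of 117 in Gabarap, Gabarapl1 and Gabarapl2.

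Levels are RPKM, reads scaled by transcript length and by the reads of the library. A change is the right leg minus the left leg in log2(RPKM + 0.5), which understates how far weakly expressed genes moved. A gene was called, and is said to have risen or fallen, at an adjusted p under 0.05 from limma (Benjamini-Hochberg, over every tested gene). The libraries held 14826932 to 17323390 reads in listed genes. Right legs exceeded left legs by 0.52 at the median tested gene of C57BL/6 and by 0.38 at that of BALB/c, and a relative change has that median subtracted. Rescaling the libraries by median-of-ratios factors brings the median change to 0.02 in both strains, and directions that turn under it are named with the result. Of 8 skeletal muscle markers none was at 0 in every library of a leg. In C57BL/6 6 fell and 2 rose, and in BALB/c 4 fell and 2 rose, the rises being of Mb, for myoglobin (4.82 and 2.29), and Des, for desmin (1.18 and 1.20). Their summed level was 66561 to 73207 RPKM in right legs of C57BL/6 against 111480 to 120600 RPKM in left legs, and 53106 to 79076 RPKM in right legs of BALB/c against 88068 to 109530 RPKM in left legs.

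Other cell types moved with the comparison. All 8 macrophage markers rose in C57BL/6, where they summed to 79.8 to 156 RPKM in right legs and 7.84 to 11.4 RPKM in left legs. In BALB/c 7 of 8 rose, with sums of 160.1 to 258 RPKM in right legs and 53.7 to 87.8 RPKM in left legs. Of 6 fibroblast markers 6 rose in C57BL/6, while in BALB/c 3 rose and 1 fell. Of 5 endothelial markers none rose, and 2 fell in C57BL/6 and 1 in BALB/c. The 4 Schwann cell, 2 satellite cell and 3 adipocyte markers gave 1 rise in all in C57BL/6, against 2 rises and 1 fall in BALB/c. Their part in the results for autophagy genes was not tested. In muscle sampled whole, fewer cells of a type and less RNA per cell cannot be told apart.

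By transcript length, 1 library stood furthest from the others of its group. In BALB/c right library 2, transcripts over 5000 bases were 0.40 lower, and those under 1500 bases 0.20 higher, than in the other 2 BALB/c right libraries (median log2 differences). Over all genes averaging 1 RPKM or more, the median change in BALB/c was 0.86 for transcripts under 1500 bases and 0.20 for those over 5000 bases, against 0.80 and 0.46 in C57BL/6. Without library 2 of each leg these medians were 0.83 and 0.40 in BALB/c, against 0.75 and 0.47 in C57BL/6. The listed transcripts of Gabarapl2, Map1lc3a and Gabarap have 974, 986 and 1116 bases, and those of Rb1cc1 and Atg2b have 7020 and 10129 bases. The part of transcript length in the changes was not tested. Results in BALB/c are therefore also given without this library where it changed them.

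In C57BL/6, 30 of the 38 genes rose in the denervated muscle, 3 fell and 5 were not called. Among all 14551 tested genes 63.6% rose and 8.56% fell, and the counts of members are read against these shares. The median change of the 38 genes was 0.65, against 0.52 over all tested genes. In BALB/c, 21 rose, 2 fell and 15 were not called, with 42.5% of 14819 tested genes rising and 7.67% falling, and the median change was 0.57 against 0.38 over all tested genes. Without BALB/c right library 2, 27 rose and 2 fell. The shares of all tested genes in fits without a library are not given. Counts from such fits, in all or by role, are therefore not read as results about the members. After rescaling, 10 rose and 12 fell in C57BL/6 (28.2% and 26.4% of all tested genes), and 9 rose and 6 fell in BALB/c (21.8% and 19% of all tested genes). Counts by role below are read against the same shares, as deposited and after rescaling. The right libraries lay above all left libraries for 30 genes and below them for 3 in C57BL/6 (66.2% and 9.57% of all tested genes), and for 24 and 2 in BALB/c (48.1% and 10.4%). The split into rises and falls therefore depends on the scaling, while ratios between members within a library do not. Not every ratio taken separated the legs. Those of Gabarapl1 to Gabarap, Tfeb to Tfe3 and Atg4d to Atg4b did so in C57BL/6 (exact two-sided permutation p = 0.1 in each). In BALB/c the legs overlapped for these ratios (exact two-sided permutation p = 0.2, 0.2 and 0.4).

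A set of 20 genes rose in both strains as deposited, 2 fell in both, and none was called in opposite directions. The shares of all tested genes called in both strains, or under both scalings, are not given. These shared counts are therefore not read as results about the members. The 5 genes Map1lc3a, Gabarap, Gabarapl1, Atg7 and Uvrag rose in both strains with the deposited scaling and after rescaling. With rescaling and a block for equal library numbers, Atg7 was not called in C57BL/6 (limma adjusted p = 0.0605). Uvrag was then not called in BALB/c (limma adjusted p = 0.0555). Ulk2 and Tfeb fell in both strains under both scalings. The plot of changes by role shows Map1lc3a standing alone at the right of both panels, the other LC3 and GABARAP genes mostly right of the median tested gene, and Ulk2 and Tfeb at the far left.

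**Figure D1:**
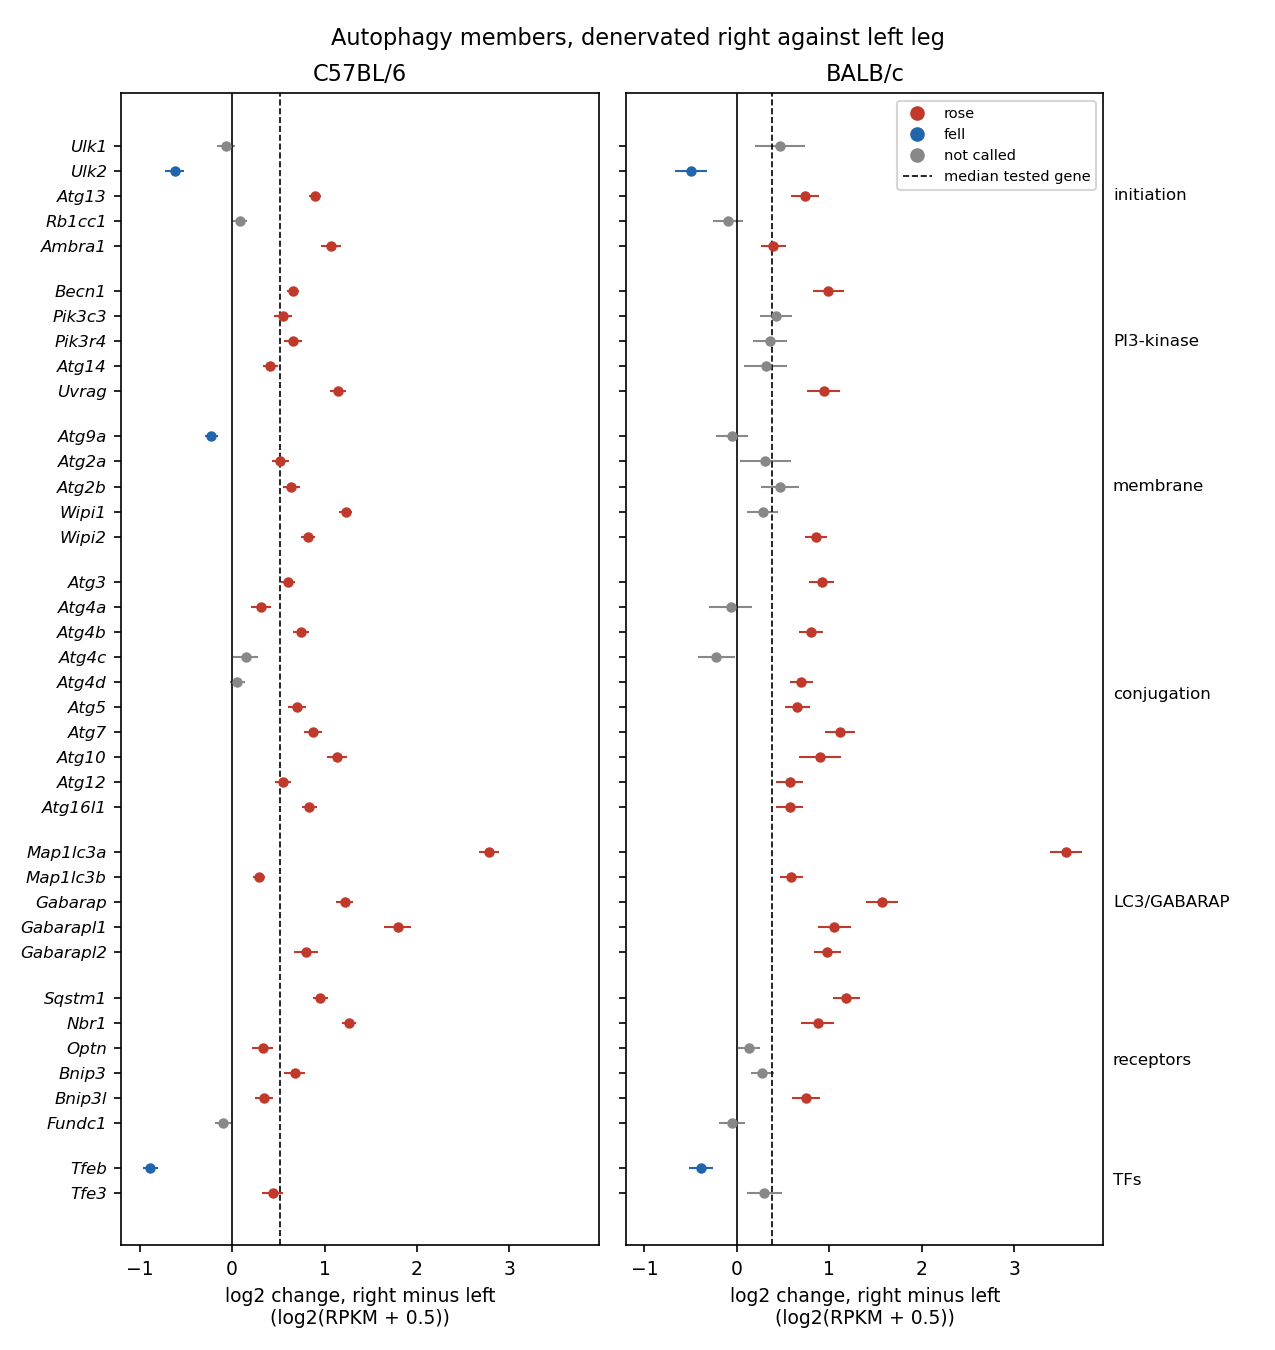
Change of each of the 38 genes, as right minus left log2(RPKM + 0.5), in C57BL/6 and BALB/c (3 libraries per leg); points are changes, bars their SE, colours the calls as deposited, and the dashed line the median tested gene at 0.52 and 0.38. Map1lc3a lies at 2.78 and 3.56 and Tfeb at -0.88 and -0.39; genes left of the dashed line were below the median tested gene, and 15 members in C57BL/6 and 10 in BALB/c change sign after median-of-ratios rescaling.

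The LC3 and GABARAP family was led by Map1lc3a, which codes for LC3A, an LC3 protein conjugated to the autophagosome. In C57BL/6 it had 1239, 1211 and 1049.7 RPKM in right legs and 150.3, 178 and 180.3 RPKM in left legs. In BALB/c it had 1185, 1426 and 1250.3 RPKM in right legs and 109, 93.0 and 126 RPKM in left legs. Every right library was several times above every left library of its strain. The mean level was 6.89-fold higher in right legs of C57BL/6 and 11.8-fold higher in those of BALB/c, log2 changes of 2.78 ± 0.11 and 3.56 ± 0.17 (SE; limma adjusted p = 1.67e-06 and 1.12e-05). Relative to the median tested gene the changes were 2.26 and 3.18. The tables place it on chromosome 2, from 155102100 to 155103809 on the plus strand of mm9, and list for it a non-coding RefSeq transcript of 986 bases, so the reads of the coding transcript count only where they share its exons.

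Map1lc3b, which codes for LC3B, the LC3 protein most often used to mark autophagosomes, moved far less. It had 43.0, 41.4 and 41.9 RPKM in right legs of C57BL/6 and 32.9, 33.5 and 36.6 RPKM in left legs. In BALB/c the values were 43.4, 53.1 and 48.6 RPKM in right legs and 32.4, 31.3 and 32.0 RPKM in left legs. The legs did not overlap in either strain, but the steps were small. The rise was 0.29 ± 0.07 (SE) in C57BL/6 (limma adjusted p = 0.00612) and turned to -0.42, a called fall, after rescaling, and it was 0.59 ± 0.12 (SE) in BALB/c (limma adjusted p = 0.00516), where no change was called after rescaling. Relative to the median tested gene its change was -0.23 in C57BL/6 and 0.21 in BALB/c.

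Gabarap, the founding member of the GABARAP subfamily, had 252, 257 and 219 RPKM in right legs of C57BL/6 and 98.6, 100.4 and 113 RPKM in left legs. In BALB/c it had 272, 383 and 349.7 RPKM in right legs and 113, 102 and 119.7 RPKM in left legs. The right libraries were above all left libraries in both strains, and the highest was BALB/c right library 2. Its changes were 1.22 ± 0.09 in C57BL/6 and 1.57 ± 0.17 in BALB/c (SE; limma adjusted p = 2.29e-05 and 2.15e-04).

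Gabarapl1, a close relative of Gabarap, had 41.4, 61.9 and 53.8 RPKM in right legs of C57BL/6 and 13.3, 15.4 and 15.2 RPKM in left legs. In BALB/c the values were 34.1, 37.3 and 31.4 RPKM in right legs and 13.4, 21.0 and 15.1 RPKM in left legs. The legs were separate in both strains, with the right legs of C57BL/6 reaching further up. The changes were 1.79 ± 0.15 and 1.06 ± 0.18 (SE; limma adjusted p = 3.02e-05 in C57BL/6 and 0.00184 in BALB/c). Gabarapl2, also called GATE-16, was the lowest of the 5, with 13.7, 13.0 and 14.1 RPKM in right legs of C57BL/6 and 6.55, 7.18 and 9.32 RPKM in left legs, and 7.80, 7.86 and 8.52 RPKM in right legs of BALB/c and 3.38, 4.47 and 3.76 RPKM in left legs. Its rises of 0.80 ± 0.13 and 0.98 ± 0.15 (SE; limma adjusted p = 8.22e-04 and 0.00101) kept a positive sign after rescaling, and of these only the BALB/c one was then called. In the plot of the 5 genes by library the separation of the legs is widest for Map1lc3a and narrowest for Map1lc3b.

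**Figure D2:**
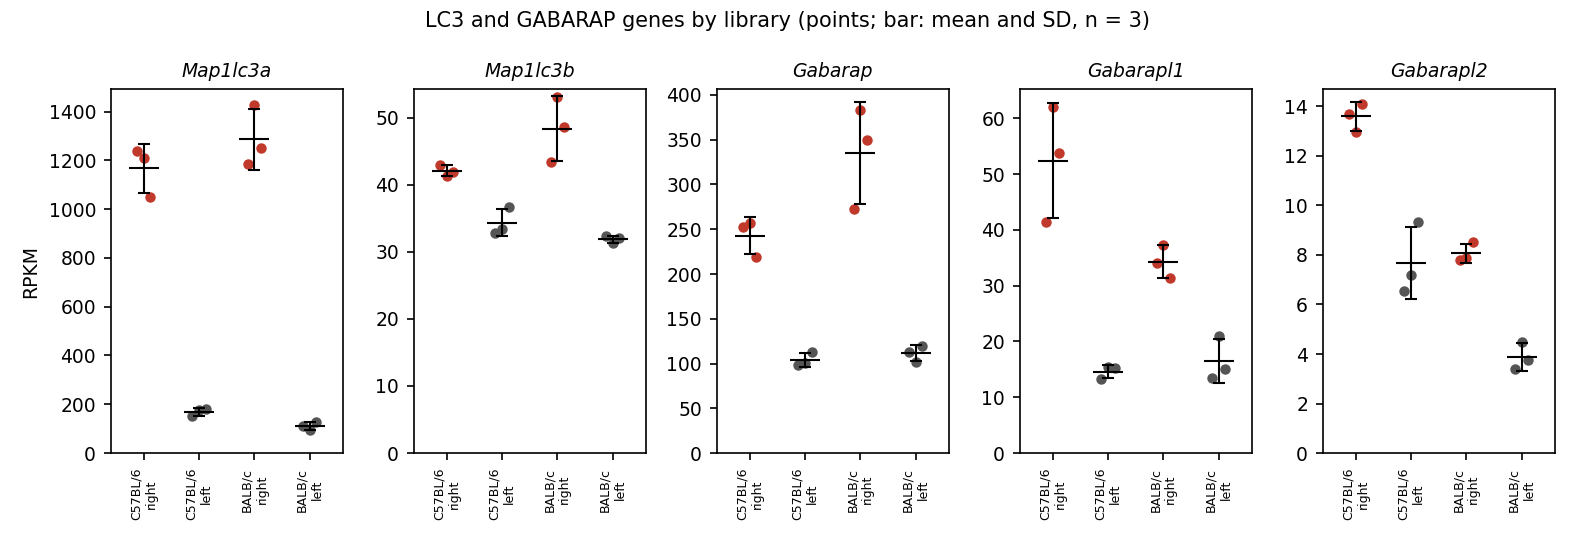
RPKM of the 5 LC3 and GABARAP genes in each library, right leg left of left leg in each strain; points are libraries, bars the mean and SD (n = 3), each panel with its own axis from 0. Map1lc3a averaged 1167 ± 102 RPKM in right legs of C57BL/6 and 169 ± 16.6 RPKM in left legs, and Map1lc3b 42.1 ± 0.814 RPKM in right legs and 34.3 ± 2.03 RPKM in left legs, with a C57BL/6 direction that turns after median-of-ratios rescaling.

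Summed over the 5 genes, LC3 and GABARAP transcripts reached 1517 ± 120.3 RPKM in right legs of C57BL/6 and 330.1 ± 26.7 RPKM in left legs, and 1713 ± 184 RPKM in right legs of BALB/c and 273 ± 22.3 RPKM in left legs (SD, n = 3). Map1lc3a made up 76.8% ± 0.97 of the sum in right legs of C57BL/6 and 51.3% ± 1.71 in left legs, and 75.2% ± 1.44 in right legs of BALB/c and 39.9% ± 2.80 in left legs. Between the strains, the share of Map1lc3a overlapped in right legs, at 74.0% to 76.8% in BALB/c and 76.1% to 77.95% in C57BL/6, and did not overlap in left legs, at 36.9% to 42.5% in BALB/c and 49.8% to 53.2% in C57BL/6. The shares of Gabarap, Gabarapl1 and Gabarapl2 did not overlap between the right legs of the strains, and that of Gabarapl2 was 0.412% to 0.506% in BALB/c and 0.819% to 1.023% in C57BL/6. These comparisons are across tables normalized separately, with no test, and a share within a library does not depend on the scaling. Gabarap made up 16.0% of the sum in right legs of C57BL/6 and 31.5% in left legs, and 19.5% in right legs of BALB/c and 40.8% in left legs. In BALB/c left legs Gabarap and Map1lc3a were thus about level. The share of Map1lc3b was 2.79% in right legs of C57BL/6 and 10.4% in left legs, and 2.82% in right legs of BALB/c and 11.7% in left legs.

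The ratio of Map1lc3a to Map1lc3b within a library was 27.7 ± 2.34 in right legs of C57BL/6 and 4.93 ± 0.37 in left legs, and 26.6 ± 0.80 in right legs of BALB/c and 3.43 ± 0.48 in left legs (SD, n = 3). The legs did not overlap in either strain, and the exact two-sided permutation p was 0.1 in each, the smallest that 3 against 3 libraries can give.

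**Figure D3:**
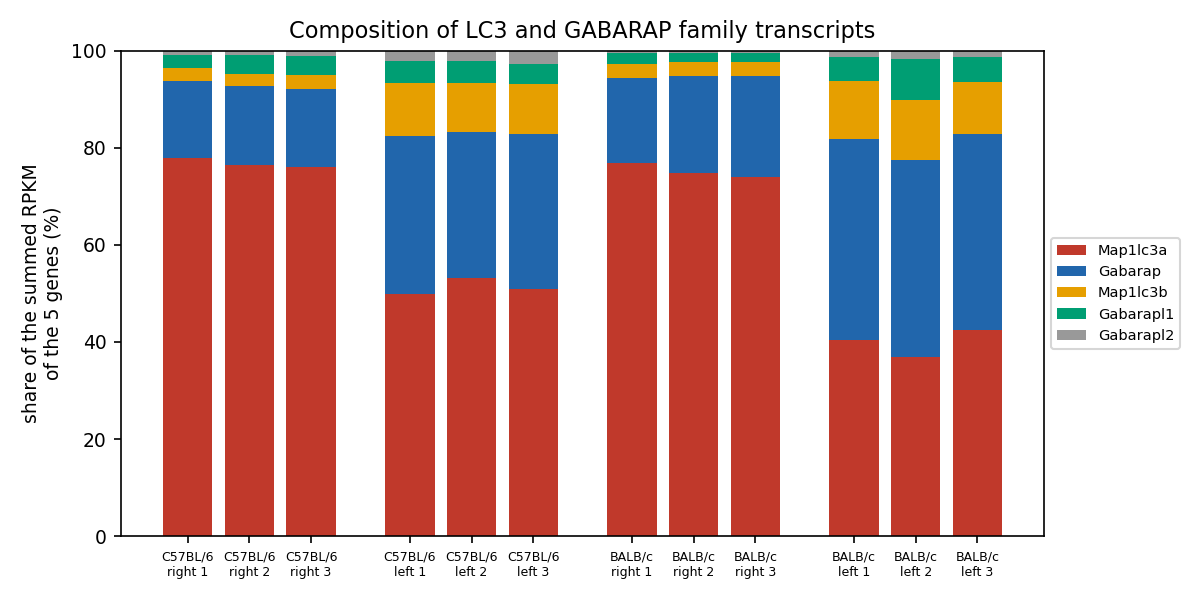
Share of each gene in the summed RPKM of the 5 LC3 and GABARAP genes (%), one bar per library, right legs left of left legs in each strain. Map1lc3a takes 75.2% to 76.8% on average in right legs, against 51.3% in left legs of C57BL/6 and 39.9% in left legs of BALB/c.

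Among the 5 genes of the initiating kinase complex and its regulator, 2 rose, 1 fell and 2 were not called in each strain. Of all tested genes 63.6% rose and 8.56% fell in C57BL/6, and 42.5% rose and 7.67% fell in BALB/c. After rescaling 2 rose and 3 fell in C57BL/6, and 2 fell in BALB/c. Ulk1 and Ulk2 code for related kinases that start autophagosome formation, and their transcripts parted. Ulk2 had 10.9, 10.5 and 11.9 RPKM in right legs of C57BL/6 and 19.4, 17.5 and 15.4 RPKM in left legs, a change of -0.62 ± 0.10 (SE; limma adjusted p = 9.41e-04). In BALB/c it had 10.9, 7.06 and 10.4 RPKM in right legs and 13.4, 12.8 and 13.8 RPKM in left legs, a change of -0.50 ± 0.18 (SE; limma adjusted p = 0.0468). All right libraries lay below all left libraries in both strains, although the BALB/c call was lost in 4 of 6 fits that left out 1 library (adjusted p up to 0.133).

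Ulk1 had 18.4, 15.6 and 17.4 RPKM in right legs of C57BL/6 and 19.1, 18.7 and 16.0 RPKM in left legs. In BALB/c it had 37.5, 17.8 and 28.9 RPKM in right legs and 16.6, 23.97 and 18.0 RPKM in left legs. The legs overlapped in both strains, and in BALB/c right library 2 was the only right library inside the range of the left ones. Its changes were -0.06 and 0.47 (limma adjusted p = 0.58 and 0.182). After rescaling it fell by 0.76 in C57BL/6 and was -0.04 in BALB/c, and it rose by 0.76 in BALB/c as deposited without right library 2 (limma adjusted p = 0.0188). The ratio of Ulk2 to Ulk1 within a library was 0.65 ± 0.05 in right legs of C57BL/6 and 0.97 ± 0.04 in left legs, and 0.35 ± 0.05 in right legs of BALB/c and 0.70 ± 0.15 in left legs (SD, n = 3). The legs did not overlap in either strain (exact two-sided permutation p = 0.1 in each, the smallest possible), so Ulk2 was lower relative to Ulk1 whatever the scaling.

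Ambra1, which links the kinase complex to Beclin 1, had 13.7, 11.0 and 12.5 RPKM in right legs of C57BL/6 and 5.47, 6.28 and 5.16 RPKM in left legs, and 9.30, 7.72 and 9.52 RPKM in right legs of BALB/c and 6.33, 6.90 and 6.55 RPKM in left legs. The right libraries were above the left ones in both strains, by far more in C57BL/6. Its changes were 1.07 ± 0.11 in C57BL/6 and 0.39 ± 0.14 in BALB/c (SE; limma adjusted p = 7.85e-05 and 0.0435), and the BALB/c one turned to -0.10 after rescaling and was lost in 5 of 6 fits that left out 1 library. Atg13, a subunit of the kinase complex, had 20.4, 20.2 and 20.3 RPKM in right legs of C57BL/6 and 11.1, 10.7 and 10.2 RPKM in left legs, and 23.1, 17.5 and 22.7 RPKM in right legs of BALB/c and 11.3, 13.4 and 12.5 RPKM in left legs. The legs were well apart, and it rose by 0.90 and 0.73 (limma adjusted p = 1.70e-05 and 0.00438). After rescaling it was 0.20 in C57BL/6, called, and 0.22 in BALB/c, not called (limma adjusted p = 0.0388 and 0.163). Rb1cc1, the large scaffold of the complex also called FIP200, was not called, with changes of 0.08 in C57BL/6 and -0.09 in BALB/c (limma adjusted p = 0.36 and 0.645), and after rescaling it fell by 0.59 in C57BL/6 and by 0.58 in BALB/c.

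All 5 genes of the lipid kinase complex rose in C57BL/6, and 2 of 5 rose in BALB/c, or 4 of 5 without BALB/c right library 2. With all libraries, 63.6% of all tested genes rose in C57BL/6 and 42.5% in BALB/c. After rescaling 1 rose in C57BL/6 and 2 in BALB/c. Uvrag codes for the subunit that directs the complex to later, endosomal steps. It had 5.96, 5.90 and 5.38 RPKM in right legs of C57BL/6 and 2.37, 2.43 and 2.14 RPKM in left legs, and 5.66, 4.02 and 5.29 RPKM in right legs of BALB/c and 2.003, 2.77 and 2.30 RPKM in left legs. The right libraries were above all left libraries, with changes of 1.15 ± 0.09 and 0.94 ± 0.18 (SE; limma adjusted p = 2.08e-05 and 0.00346). Atg14, the subunit that directs the same complex to the forming autophagosome, had 3.68, 3.49 and 3.81 RPKM in right legs of C57BL/6 and 2.62, 2.76 and 2.50 RPKM in left legs, and 4.01, 1.91 and 3.17 RPKM in right legs of BALB/c and 2.31, 2.25 and 2.19 RPKM in left legs. In BALB/c right library 2 lay below all left libraries and the other 2 above them. Its changes were the smallest of the 5 in both strains, 0.41 and 0.31 (limma adjusted p = 0.00277 and 0.295), with turns to -0.21 and -0.13 after rescaling, and a rise of 0.57 in BALB/c without right library 2 (limma adjusted p = 0.0195).

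Becn1, which codes for Beclin 1, the regulatory subunit shared by both forms of the complex, had 37.0, 34.1 and 34.4 RPKM in right legs of C57BL/6 and 21.9, 22.2 and 22.2 RPKM in left legs, and 41.1, 30.8 and 46.6 RPKM in right legs of BALB/c and 19.3, 19.0 and 19.7 RPKM in left legs. The left libraries of a strain were nearly equal and the right ones all above them. It rose by 0.66 and 0.99 (limma adjusted p = 6.92e-05 and 0.00167), though in C57BL/6 the change was -0.05 after rescaling. Pik3c3, the catalytic subunit VPS34, and Pik3r4, its partner VPS15, rose by 0.55 and 0.66 in C57BL/6. After rescaling they were -0.12 and 0.04 there, neither called. In BALB/c they were not called (0.42 and 0.36, or -0.05 and -0.09 after rescaling). Without BALB/c right library 2, Pik3c3 rose by 0.53 there (limma adjusted p = 0.0326).

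Of the 5 genes that bring membrane and lipid to the phagophore, 4 rose and 1 fell in C57BL/6, and 1 rose in BALB/c, or 3 without BALB/c right library 2. With all libraries, 63.6% of all tested genes rose and 8.56% fell in C57BL/6, and 42.5% rose in BALB/c. After rescaling 1 rose and 1 fell in each strain. Wipi1 and Wipi2 code for proteins that read the lipid mark, and they moved together in C57BL/6 but not in BALB/c. Wipi1 had 47.2, 47.2 and 51.5 RPKM in right legs of C57BL/6 and 20.2, 21.0 and 20.1 RPKM in left legs, and 37.2, 35.6 and 37.4 RPKM in right legs of BALB/c and 26.9, 38.9 and 26.2 RPKM in left legs. The legs were far apart in C57BL/6 and overlapped in BALB/c through left library 2, the highest BALB/c library. The changes were 1.23 ± 0.07 and 0.28 ± 0.17 (SE; limma adjusted p = 5.62e-06 and 0.205), and the BALB/c change was -0.24 after rescaling and 0.46 without BALB/c left library 2 (limma adjusted p = 0.0242). Wipi2 had 13.7, 12.5 and 12.6 RPKM in right legs of C57BL/6 and 6.95, 6.79 and 7.55 RPKM in left legs, and 13.4, 12.3 and 13.1 RPKM in right legs of BALB/c and 6.93, 7.03 and 6.74 RPKM in left legs. These values were alike in the 2 strains, and it rose by 0.82 and 0.86 (limma adjusted p = 5.51e-05 and 6.96e-04). After rescaling it was 0.14 in C57BL/6, not called, and 0.36 in BALB/c, called (limma adjusted p = 0.185 and 0.0455).

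The ratio of Wipi1 to Wipi2 within a library was 3.76 ± 0.32 in right legs of C57BL/6 and 2.89 ± 0.22 in left legs, but 2.84 ± 0.06 in right legs of BALB/c and 4.43 ± 0.95 in left legs (SD, n = 3). The legs were separate in both strains and in opposite order (exact two-sided permutation p = 0.1 in each, the smallest possible). Atg9a, a membrane protein of the vesicles that seed the phagophore, had 43.8, 43.8 and 44.3 RPKM in right legs of C57BL/6 and 49.0, 54.9 and 50.7 RPKM in left legs, and 46.7, 31.2 and 45.6 RPKM in right legs of BALB/c and 40.3, 42.4 and 43.9 RPKM in left legs. The right libraries of C57BL/6 were tightly grouped just below the left ones, and in BALB/c right library 2 was low and the other 2 were above all left libraries. Its change was -0.22 ± 0.07 in C57BL/6 (SE; limma adjusted p = 0.0186), lost without C57BL/6 left library 2 (limma adjusted p = 0.0775), and -0.06 in BALB/c (limma adjusted p = 0.809). Atg2a and Atg2b, which code for lipid transfer proteins, rose by 0.52 and 0.64 in C57BL/6. After rescaling they were -0.15 and 0.04 there, neither called. In BALB/c they were not called (0.31 and 0.47, with Atg2a at -0.18 after rescaling). Without BALB/c right library 2 they rose there by 0.60 and 0.65 (limma adjusted p = 0.04998 and 0.01997).

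Of the 10 genes of conjugation, 8 rose and 2 were not called in each strain, while 63.6% of all tested genes rose in C57BL/6 and 42.5% in BALB/c. After rescaling 2 rose and 3 fell in C57BL/6, and 1 rose and 1 fell in BALB/c. Atg7 codes for the E1-like enzyme at the head of both conjugation routes. It had 3.85, 3.59 and 3.10 RPKM in right legs of C57BL/6 and 1.71, 1.71 and 1.63 RPKM in left legs, and 4.87, 5.43 and 4.94 RPKM in right legs of BALB/c and 1.69, 2.21 and 2.39 RPKM in left legs. Every right library was above every left one, and the changes were 0.87 ± 0.10 and 1.11 ± 0.16 (SE; limma adjusted p = 1.45e-04 and 8.47e-04). Atg10, the E2-like enzyme for ATG12, had 9.20, 7.31 and 7.37 RPKM in right legs of C57BL/6 and 3.10, 3.64 and 3.29 RPKM in left legs, and 3.74, 5.54 and 4.18 RPKM in right legs of BALB/c and 2.06, 2.93 and 1.61 RPKM in left legs. The legs were separate in both strains, with changes of 1.13 ± 0.11 and 0.90 ± 0.22 (SE; limma adjusted p = 7.13e-05 and 0.0111). The BALB/c one was 0.45 after rescaling and not called (limma adjusted p = 0.149). Atg3, the E2-like enzyme for LC3, rose by 0.61 in C57BL/6, though -0.09 after rescaling. In BALB/c it rose by 0.92, and the change of 0.41 after rescaling was not called (limma adjusted p = 0.0766).

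The genes of the complex that carries LC3 to the membrane rose with the deposited scaling, as did 63.6% of all tested genes in C57BL/6 and 42.5% in BALB/c. The median tested gene changed by 0.52 and 0.38. Atg5 rose by 0.70 and 0.66, Atg16l1 by 0.84 and 0.57, and Atg12 by 0.55 and 0.57 in C57BL/6 and BALB/c, none of them called after rescaling and Atg12 at -0.14 in C57BL/6. Of 6 BALB/c fits that left out 1 library, the call was lost in 1 for Atg12 and in 2 for Atg16l1.

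The 4 ATG4 proteases, which prepare LC3 and GABARAP proteins and also release them from the membrane, did not move alike. Atg4b, the most broadly active of them, rose by 0.75 and 0.80, and was called in neither strain after rescaling (0.07 and 0.31). Atg4d had 13.6, 12.9 and 12.7 RPKM in right legs of C57BL/6 and 12.6, 11.4 and 13.6 RPKM in left legs, and 25.0, 20.9 and 21.9 RPKM in right legs of BALB/c and 13.7, 13.6 and 13.8 RPKM in left legs. In C57BL/6 the legs overlapped and in BALB/c the right legs were clearly higher. Its changes were 0.06 ± 0.08 and 0.70 ± 0.12 (SE; limma adjusted p = 0.565 and 0.00222), with the C57BL/6 one turning to -0.64, a called fall, after rescaling. The BALB/c one was 0.19 after rescaling and not called (limma adjusted p = 0.278). Strand was not used in counting, and the span of Atg4d overlaps that of Kri1 on the other strand by 1381 bases. Kri1 averaged 10.5 RPKM in right legs of C57BL/6 and 4.94 RPKM in left legs, and 14.4 RPKM in right legs of BALB/c and 5.70 RPKM in left legs. How far the exons overlap was not examined, and where they do the reads of the 2 genes cannot be told apart. Becn1, Map1lc3b and Gabarapl1 share shorter stretches of 444, 58 and 93 bases with genes on the other strand. Atg4c was low, with 1.54, 1.72 and 2.23 RPKM in right legs of C57BL/6 and 1.80, 1.51 and 1.47 RPKM in left legs, and 1.42, 1.054 and 1.94 RPKM in right legs of BALB/c and 1.67, 2.001 and 1.62 RPKM in left legs. Its legs overlapped in both strains, and it was not called (0.15 and -0.22), though it fell in both strains after rescaling, by 0.41 and 0.62. Atg4a rose by 0.31 in C57BL/6 (limma adjusted p = 0.0352), turned to -0.35, a called fall, after rescaling, and was at -0.07 in BALB/c. Its C57BL/6 call was lost in 4 of 6 fits that left out 1 library (limma adjusted p up to 0.108).

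Of the 6 receptor genes, 5 rose in C57BL/6 and 3 in BALB/c, while 63.6% and 42.5% of all tested genes rose there. After rescaling 1 rose and 3 fell in C57BL/6, and 1 rose and 1 fell in BALB/c. The LC3-interacting stretch of 3 receptors is shown because it is what ties cargo or mitochondria to the LC3 proteins above. It was found in the GENCODE M21 coding sequences of GRCm38 by its codon pattern, with 1 match in each gene, and the 4 core codons are in capitals.
Sqstm1: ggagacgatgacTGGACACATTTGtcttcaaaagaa
Bnip3: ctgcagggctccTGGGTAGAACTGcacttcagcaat
Bnip3l: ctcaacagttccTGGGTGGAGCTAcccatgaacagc
The core starts at codon 340 of 442 in Sqstm1, at codon 13 of 187 in Bnip3 and at codon 35 of 218 in Bnip3l.

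Sqstm1, which codes for p62, a receptor of ubiquitinated cargo, was the highest of the 38 genes after Map1lc3a in right legs and the highest in left legs. It had 550.2, 535 and 574 RPKM in right legs of C57BL/6 and 308, 279.6 and 270.2 RPKM in left legs, and 518, 455 and 542 RPKM in right legs of BALB/c and 222, 214 and 229 RPKM in left legs. The right libraries were far above the left ones in both strains. Its changes were 0.95 ± 0.08 and 1.18 ± 0.15 (SE; limma adjusted p = 3.97e-05 and 4.18e-04), and after rescaling 0.23, not called, and 0.66, called. Nbr1, another receptor of ubiquitinated cargo, had 36.5, 32.1 and 36.5 RPKM in right legs of C57BL/6 and 14.4, 14.3 and 14.2 RPKM in left legs, and 34.9, 23.8 and 35.6 RPKM in right legs of BALB/c and 15.9, 18.5 and 15.7 RPKM in left legs. The left libraries of C57BL/6 were nearly equal, and BALB/c right library 2 was the lowest right library. Its changes were 1.26 ± 0.07 and 0.88 ± 0.18 (SE; limma adjusted p = 7.63e-06 and 0.00442). The BALB/c one was 0.36 after rescaling and not called (limma adjusted p = 0.0794). The ratio of Sqstm1 to Nbr1 within a library was 15.8 ± 0.83 in right legs of C57BL/6 and 19.997 ± 1.23 in left legs, but 16.4 ± 2.37 in right legs of BALB/c and 13.4 ± 1.63 in left legs (SD, n = 3), separate in both strains and in opposite order (exact two-sided permutation p = 0.1 in each, the smallest possible). In BALB/c the gap was narrow, from 14.6 in the highest left library to 14.8 in the lowest right one. BALB/c right library 2 had the highest ratio, 19.1, and right library 3 had 15.2.

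The mitochondrial receptors moved less. Fundc1, an outer membrane receptor, had 6.50, 6.94 and 5.96 RPKM in right legs of C57BL/6 and 7.36, 6.72 and 6.78 RPKM in left legs, and 5.05, 5.51 and 6.30 RPKM in right legs of BALB/c and 5.88, 5.81 and 5.78 RPKM in left legs. The legs overlapped in both strains, with changes of -0.10 and -0.05 (limma adjusted p = 0.32 and 0.779), and after rescaling it fell by 0.77 and 0.53. Bnip3 and Bnip3l code for related outer membrane receptors, Bnip3l being also known as NIX. Bnip3 averaged 79.4 ± 11.3 RPKM in right legs of C57BL/6 and 49.3 ± 2.60 RPKM in left legs, a rise of 0.68 that was -0.04 after rescaling, and 43.2 ± 1.39 RPKM in right legs of BALB/c and 35.6 ± 3.50 RPKM in left legs, a change of 0.28, or -0.24 after rescaling, that was not called (SD, n = 3; limma adjusted p = 9.16e-04 and 0.1). Bnip3l rose by 0.34 in C57BL/6, though it fell by 0.34 after rescaling. In BALB/c it rose by 0.75, and the change of 0.26 after rescaling was not called (limma adjusted p = 0.31). Within a library the ratio of Bnip3 to Bnip3l was 8.19 ± 0.98 in right legs of C57BL/6 and 6.53 ± 0.40 in left legs, but 4.13 ± 0.43 in right legs of BALB/c and 5.94 ± 1.01 in left legs (SD, n = 3), again separate in opposite order (exact two-sided permutation p = 0.1 in each, the smallest possible). Optn, a receptor of ubiquitinated mitochondria and bacteria, rose by 0.33 in C57BL/6 (limma adjusted p = 0.0304), fell by 0.37 there after rescaling, and was at 0.13 in BALB/c (limma adjusted p = 0.371), or -0.38 after rescaling. Its C57BL/6 call was lost in 3 of 6 fits that left out 1 library (limma adjusted p up to 0.0871).

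Tfeb codes for a transcription factor known for switching on autophagy and lysosome genes, and its transcript fell. It had 25.1, 27.7 and 26.9 RPKM in right legs of C57BL/6 and 51.8, 51.1 and 45.6 RPKM in left legs. In BALB/c it had 35.0, 36.8 and 29.3 RPKM in right legs and 46.5, 42.5 and 43.4 RPKM in left legs. All right libraries were below all left libraries of the strain, with the wider gap in C57BL/6. The changes were -0.88 ± 0.08 and -0.39 ± 0.13 (SE; limma adjusted p = 4.35e-05 and 0.0394), and the BALB/c call was lost in 5 of 6 fits that left out 1 library (adjusted p up to 0.142). Relative to the median tested gene they were -1.41 and -0.77. Tfe3, a related factor, had 4.64, 5.51 and 5.83 RPKM in right legs of C57BL/6 and 3.72, 3.41 and 4.22 RPKM in left legs, and 8.80, 5.85 and 9.06 RPKM in right legs of BALB/c and 5.73, 7.07 and 5.96 RPKM in left legs. The legs were separate in C57BL/6 and overlapped in BALB/c. It rose by 0.44 in C57BL/6 (limma adjusted p = 0.00941), though it was -0.21 after rescaling, and was not called in BALB/c (0.30, limma adjusted p = 0.233), with -0.19 after rescaling. Without BALB/c right library 2, the lowest right library, it rose by 0.49 there (limma adjusted p = 0.0229).

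TFEB and TFE3 bind the letters CACGTG within the so-called CLEAR element. RefSeq promoter windows of GRCm38.p6, from 250 bases before to 50 after the start, were at hand for 31 of the 38 genes, and 5 of these, Atg3, Atg5, Atg7, Atg14 and Bnip3, hold CACGTG (16.1%, against 8.09% of 27025 genes). The word reads the same on both strands. The start site of the window listed for Atg7 lies 27999 bases inside the gene as GENCODE M21 places it on GRCm38, and 9066 bases from the nearest transcript start there, so this window is not shown. It is still counted among the 5 and in the 16.1%. As deposited all 5 rose in C57BL/6, where 63.6% of all tested genes did, while in BALB/c, where 42.5% did, Atg3, Atg5 and Atg7 rose and Atg14 and Bnip3 were not called. After rescaling Atg7 was the only one of them called in either strain. The window of Atg3 is shown because it holds the word at 2 places, with CACGTG in capitals.
Atg3, chr16:45158579-45158878, plus strand: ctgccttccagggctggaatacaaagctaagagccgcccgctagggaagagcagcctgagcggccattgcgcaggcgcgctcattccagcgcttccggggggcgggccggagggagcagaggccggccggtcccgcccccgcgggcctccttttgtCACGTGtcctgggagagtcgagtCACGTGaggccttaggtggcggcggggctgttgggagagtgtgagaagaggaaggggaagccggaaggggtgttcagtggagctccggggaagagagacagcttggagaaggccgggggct
The word starts 94 and 71 bases before the listed start. The FoxO word GTAAACA, searched on both strands, was in the windows of none of the 31 genes, against 4.05% of all genes, and the myogenin word CAGCTG was in those of 6 (19.4%, against 18.3%). One of the 6 is Atg4a, where the window with the word has its listed start 3062 bases before the gene in GENCODE M21. A match says only that the letters are there.

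**Figure D4:**
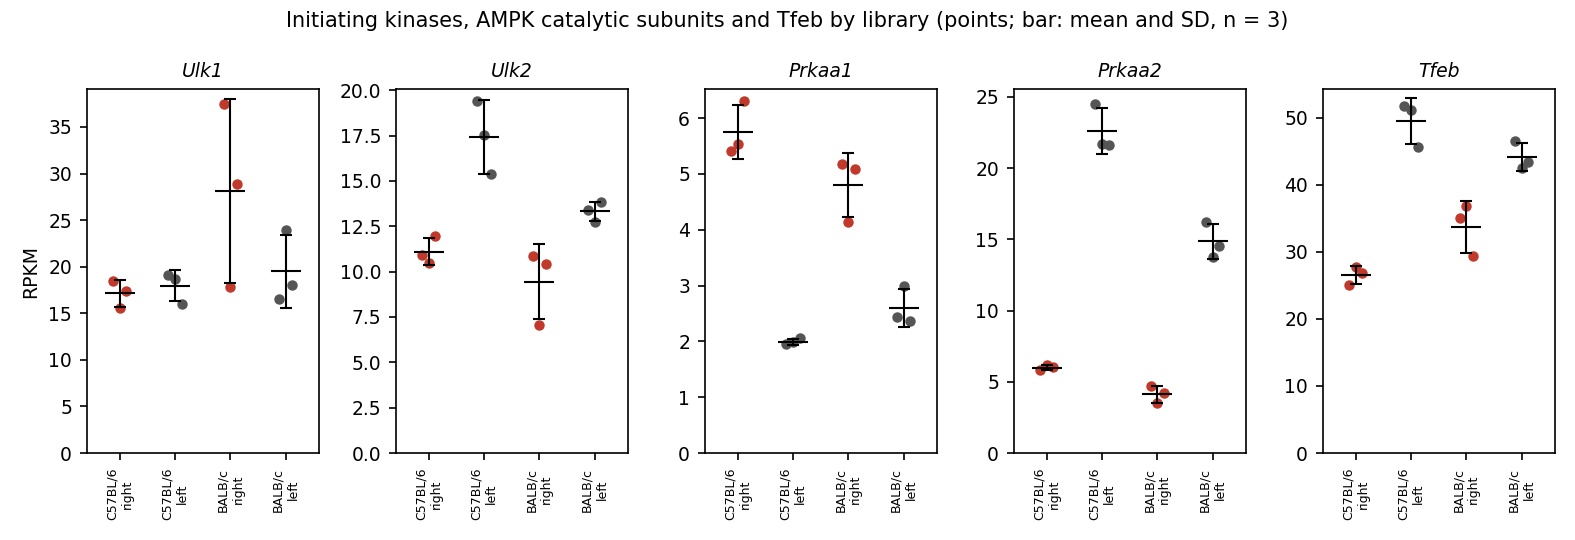
RPKM of Ulk1, Ulk2, the AMPK catalytic subunits Prkaa1 and Prkaa2, and Tfeb in each library, right leg left of left leg in each strain; points are libraries, bars the mean and SD (n = 3), each panel with its own axis from 0. Prkaa2 averaged 6.00 ± 0.177 RPKM in right legs of C57BL/6 and 22.6 ± 1.63 RPKM in left legs while Prkaa1 averaged 5.75 ± 0.481 RPKM in right legs and 1.99 ± 0.0551 RPKM in left legs; Ulk2 and Tfeb are lower in right legs of both strains.

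Of 47 further genes of the pathway, 31 rose and 4 fell in C57BL/6, and 21 rose and 5 fell in BALB/c, shares near those of all tested genes (63.6% and 8.56%, and 42.5% and 7.67%). After rescaling 13 rose and 15 fell in C57BL/6, and 8 rose and 12 fell in BALB/c. The widest falls in both strains were of Prkaa2, the catalytic subunit of the energy-sensing kinase AMPK that prevails in muscle. It had 5.82, 6.17 and 6.01 RPKM in right legs of C57BL/6 and 24.5, 21.7 and 21.6 RPKM in left legs, and 4.69, 3.50 and 4.20 RPKM in right legs of BALB/c and 16.2, 13.8 and 14.6 RPKM in left legs. The legs were several-fold apart, with changes of -1.83 ± 0.08 and -1.73 ± 0.15 (SE; limma adjusted p = 2.23e-06 and 9.32e-05). Prkaa1, the other catalytic subunit, rose by 1.32 and 0.77, and is given here because its values were seen to oppose those of Prkaa2. The ratio of Prkaa2 to Prkaa1 within a library was 1.048 ± 0.08 in right legs of C57BL/6 and 11.4 ± 1.09 in left legs, and 0.86 ± 0.04 in right legs of BALB/c and 5.80 ± 1.07 in left legs (SD, n = 3; exact two-sided permutation p = 0.1 in each, the smallest possible). Prkaa2 was thus about level with Prkaa1 in right legs of C57BL/6, on both sides of it among the 3 libraries, and below it in all 3 right libraries of BALB/c.

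Rragd, a Rag GTPase that brings mTORC1 to the lysosome, fell by 0.93 in C57BL/6 and by 0.90 in BALB/c (limma adjusted p = 2.65e-05 and 0.00401). Mtor, the kinase of that complex, rose by 1.86 and 0.82 (limma adjusted p = 3.85e-06 and 0.0055). Sh3glb1, which binds UVRAG and bends membranes, rose by 1.88 and 1.36. Foxo1, a transcription factor known for switching on atrophy and autophagy genes in muscle, rose by 1.59 and 2.06 (limma adjusted p = 7.33e-05 and 6.58e-05). Tex264, a receptor for the endoplasmic reticulum, rose by 1.25 and 1.40, and Fkbp8, a mitochondrial receptor, by 0.90 and 1.38. These rises were positive under both scalings in both strains.

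Pink1 codes for a kinase that gathers on damaged mitochondria and marks them for removal. Pink1 had 307, 299 and 277 RPKM in right legs of C57BL/6 and 379.9, 426 and 383 RPKM in left legs, and 251, 234 and 229 RPKM in right legs of BALB/c and 249.6, 265 and 238 RPKM in left legs. The right libraries were lower in C57BL/6 and overlapped the left ones in BALB/c, with changes of -0.43 ± 0.08 and -0.08 ± 0.14 (SE; limma adjusted p = 0.00243 and 0.662), and a fall in both strains after rescaling, by 1.15 and 0.60. Nipsnap2, a mitochondrial protein that draws autophagy receptors, averaged 112 ± 3.94 RPKM in right legs of BALB/c and 223 ± 29.6 RPKM in left legs (SD, n = 3), a fall of 0.99 (limma adjusted p = 8.72e-04), and was not called in C57BL/6 (0.06, limma adjusted p = 0.557), where it fell by 0.66 after rescaling.

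The change differed between the strains for 4 of the 38 genes in a test of the difference itself, 2 with a larger and 2 with a smaller change in BALB/c. Over 14165 genes tested in both tables, 1.76% had a larger and 4.33% a smaller change in BALB/c, against which 2 and 2 of 38 genes are read, and 3.71% and 3.49% after rescaling. The change of Wipi1 was smaller in BALB/c by 0.95 (95% interval -1.35 to -0.55; limma adjusted p = 0.0153), and it kept its call after rescaling and in all 12 fits that left out 1 library. The change of Ambra1 was smaller in BALB/c by 0.68 (limma adjusted p = 0.0347), not called after rescaling (limma adjusted p = 0.0714) and lost in 6 of those 12 fits. The changes of Atg4d and Map1lc3a were larger in BALB/c, by 0.64 and 0.78 (limma adjusted p = 0.0213 and 0.0396). Both kept their calls after rescaling and lost them when the libraries were scaled to a common sum (limma adjusted p = 0.172 and 0.0597), and Map1lc3a also without the filter on low values (limma adjusted p = 0.0508), while leaving out 1 library ended the call in 4 of 12 fits for Atg4d and in 8 of 12 for Map1lc3a.

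**Figure D5:**
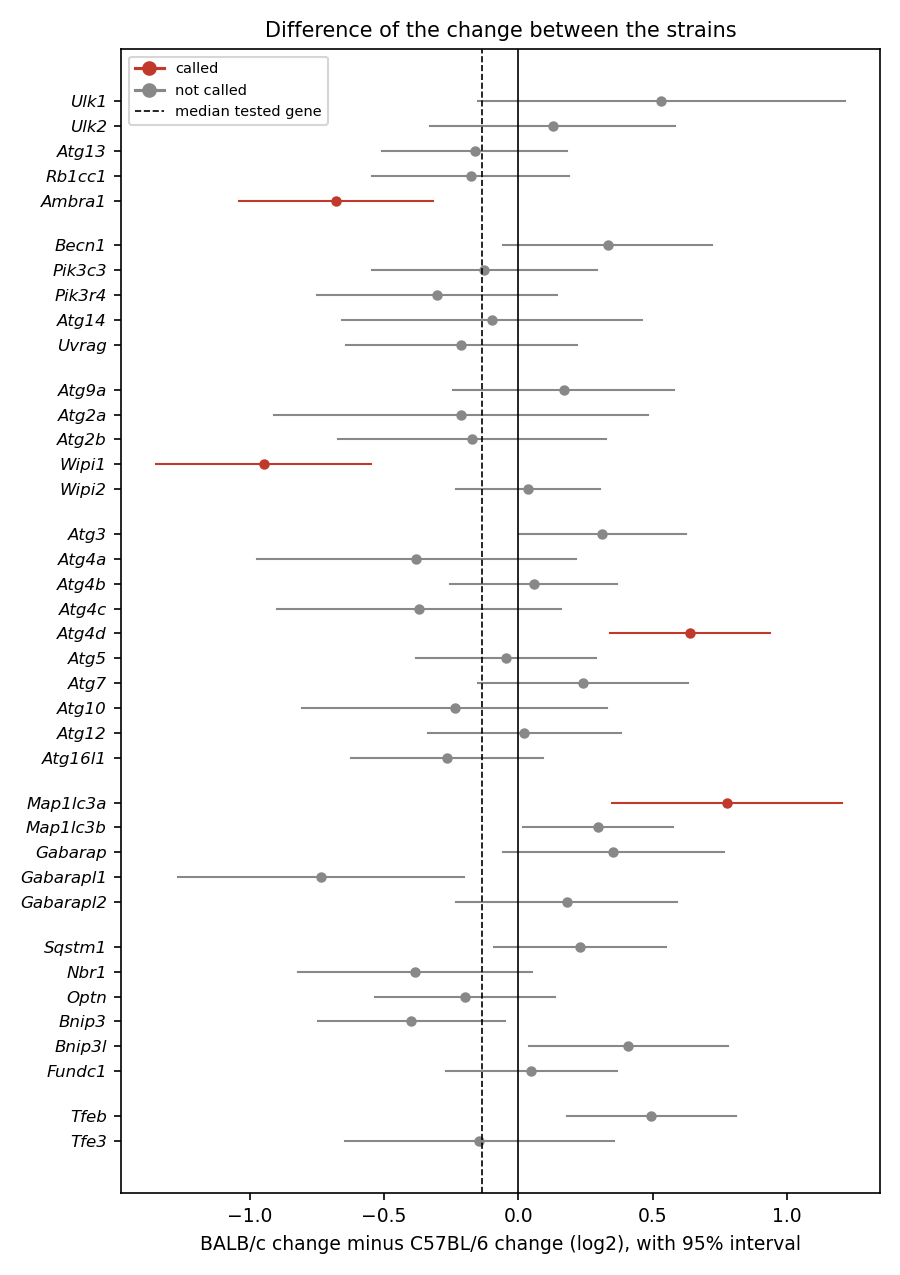
Difference of the log2 change between the strains, BALB/c minus C57BL/6, for the 38 genes by role, with its 95% interval; red marks the 4 genes called by limma, grey the others, and the dashed line the median tested gene at -0.14. Wipi1 at -0.95 and Ambra1 at -0.68 lie left, and Atg4d at 0.64 and Map1lc3a at 0.78 right; of these Ambra1 is not called after median-of-ratios rescaling.

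For the other 34 genes the difference missed the threshold, which does not show that the strains responded alike. The interval for Gabarapl1 ran from -1.27 to -0.20 around a difference of -0.74 (limma adjusted p = 0.0952), and that for Tfeb from 0.18 to 0.81 around 0.49 (limma adjusted p = 0.0644). Among the markers, 3 of macrophages, Cd68, Csf1r and Lyz2, 2 of fibroblasts, Col1a1 and Col3a1, and 1 of muscle, Mb, also had smaller changes in BALB/c in the same fit, by values between -1.37 for Csf1r and -2.89 for Cd68 (limma), and their part in the differences of Wipi1 and Ambra1 was not tested.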

How the data were processed

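Polyadenylated RNA of mouse gastrocnemius was sequenced in 12 libraries. The authors deposited RPKM values, 1 table per strain, normalized separately. HOMER made them, per the file headers, from exon reads regardless of strand on its mm9 annotation, with 1 transcript kept per gene and the RPKM option, although the columns say FPKM. The submitters' processing notes also name HISAT2, DESeq2, GRCm38 and mm10, with no role. No source used here gives the build of the alignment. The last BALB/c column of each leg was matched to its title through the sample's description. For 6 of the 38 genes the 2 tables list different transcripts.

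Per library, 99.7% to 99.8% of values gave whole reads within 0.1 read once multiplied by transcript length and a total of 18132600 to 19282900 reads. The member with the fewest reads in a library, Atg10, had 48, and the 3 libraries per group limit the precision of the errors given.

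Values were transformed to log2(RPKM + 0.5). Genes averaging 0.1 RPKM or more were tested within each strain with a trended limma fit (version 3.58.1, R 4.3.3), two-sided, Benjamini-Hochberg adjusted over every tested gene, at a threshold of 0.05. The strain difference subtracted the C57BL/6 change from the BALB/c change, in 1 fit of all 12 libraries. Ratios within a library were compared by exact two-sided permutation tests (scipy 1.17.1). The calculation was tested on simulated data. Alternatives were pseudocounts of 0.1 and 1, no filter or a filter of 1 RPKM, median-of-ratios and common-sum rescaling, limma-voom on recovered reads, a replicate block, a shared spread and each library left out in turn.

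The 38 members, the role groups, the 47 further genes, the markers and the rules were chosen with earlier results of these data known. All 38 are accounted for. Library values are given for the LC3 and GABARAP genes, for the largest rise and the largest fall or smallest rise of each other role in each strain, and for genes that differed between strains. Of the further genes, up to 3 per direction and strain with the largest change are named, with Pink1 and, chosen after its values were seen, Prkaa1. The others are given as counts, and 1 gene that the rule names is not reported here. Coding sequences are from GENCODE M21 and promoters from RefSeq. Promoters of the other 7 members were not analysed here.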

Additional observations from a re-analysis of the deposited data

Results flagged for a closer look

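A test of the difference between the strains, BALB/c change minus C57BL/6 change on the log2 scale, called 4 members and 3 further genes of the pathway. Among the members, the difference was -0.95 for Wipi1, -0.68 for Ambra1, 0.64 for Atg4d and 0.78 for Map1lc3a (limma adjusted p = 0.0153, 0.0347, 0.0213 and 0.0396). Wipi1 rose in 3 of 3 right libraries of C57BL/6 above every left library, and in BALB/c the legs overlapped. For Atg4d the pattern was the other way, with overlap in C57BL/6 and 3 of 3 right libraries above the left ones in BALB/c. The span of Atg4d overlaps that of Kri1, and shared reads were not examined.

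Among the further genes, the difference was -1.05 for Nipsnap2, a mitochondrial protein, 0.65 for Sec62, a receptor for the endoplasmic reticulum, and -1.04 for Mtor (limma adjusted p = 0.00492, 0.0182 and 0.0150). Sec62 averaged 28.6 ± 2.50 RPKM in right legs of BALB/c and 14.2 ± 0.42 RPKM in left legs, and 18.0 ± 1.42 RPKM in right legs of C57BL/6 and 14.2 ± 0.55 RPKM in left legs (SD, n = 3). The C57BL/6 change of Sec62 was 0.33 as deposited and -0.37 after rescaling. All 3 differences kept their call after median-of-ratios rescaling. Single outlying samples in groups of 3 libraries were not part of this flagging. Libraries that differed from their group, such as BALB/c right library 2, are described above.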

How the results depend on the processing

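The scaling mattered most. Members that rose numbered 30 in C57BL/6 and 21 in BALB/c, and 10 and 9 after median-of-ratios rescaling. Members that fell numbered 3 and 2, and 12 and 6 after it. These counts are read against the shares of all tested genes given above. A common sum gave 12 rises in BALB/c, without Ambra1, Atg10, Atg12, Atg13, Atg16l1, Atg4d, Atg5, Map1lc3b and Nbr1. Over all 14819 tested genes 3941 rose with a common sum, against 6302 as deposited. With a replicate block the counts were 30 rises and 3 falls in C57BL/6 (9144 and 1217 over all 14551 tested genes). In BALB/c they were 20 rises and 1 fall (5782 and 1058 over all 14819 tested genes). With the replicate block and rescaling they were 8 and 11 in C57BL/6 and 6 and 7 in BALB/c. Over all tested genes the rises and falls were then 3963 and 3765 in C57BL/6 and 2911 and 2604 in BALB/c. The deviations of single libraries within their groups, not their levels, were correlated between the 2 legs. For same-numbered libraries these correlations were 0.034 to 0.118 in C57BL/6 and 0.030 to 0.202 in BALB/c. Those of differently numbered libraries were -0.104 to 0.059 in C57BL/6 and -0.163 to 0.089 in BALB/c. With 3 libraries per leg these values cannot decide whether the numbers of the titles pair the legs. No filter, and limma-voom, each gave 1 fall in BALB/c (1093 falls over all 18624 tested genes, and 1210 over all 14819). Leaving out 1 library gave 28 to 30 rises and 2 to 3 falls in C57BL/6, and 18 to 27 rises and 0 to 2 falls in BALB/c.

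Larger changes in BALB/c numbered 2, and 1 with no filter, 0 with a common sum, 0 with the replicate block, 1 with the block and rescaling, and 0 to 4 without 1 library. Over all 14165 tested genes they numbered 249, and 93 with a common sum, 234 with the block and 396 with the block and rescaling. With no filter they numbered 261 over all 17810 tested genes. The block ended the calls of Atg4d and Map1lc3a (limma adjusted p = 0.0519 and 0.0913) and of Ambra1 (0.0929), and with rescaling those of Map1lc3a (0.110) and Ambra1 (0.148). Smaller changes numbered 2, and 1 after rescaling, 1 with the replicate block, 1 with both, and 1 to 3 without 1 library. Over all 14165 tested genes they numbered 613, and 495 after rescaling, 520 with the block and 465 with both. Without BALB/c right library 2, Becn1 and Ulk1 joined the larger changes (0.50 and 0.82; limma adjusted p = 0.0198 and 0.0445).

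Rescaling, with or without the block, turned the sign in C57BL/6 of Atg12 (-0.14), Atg14 (-0.21), Atg2a (-0.15), Atg3 (-0.0915), Atg4a (-0.35), Atg4c (-0.41), Atg4d (-0.64), Becn1 (-0.0505), Bnip3 (-0.0395), Bnip3l (-0.34), Map1lc3b (-0.42), Optn (-0.37), Pik3c3 (-0.12), Rb1cc1 (-0.59) and Tfe3 (-0.21), and in BALB/c of Ambra1 (-0.10), the one called there as deposited, and of the uncalled Atg14 (-0.13), Atg2a (-0.18), Bnip3 (-0.24), Optn (-0.38), Pik3c3 (-0.05), Pik3r4 (-0.09), Tfe3 (-0.19), Ulk1 (-0.04) and Wipi1 (-0.24). The rescaling sets the median gene near no change by construction, and which scaling is nearer to the levels in the muscle was not tested. Pseudocounts of 0.1 and 1 and a filter of 1 RPKM ended no call of a member.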
